A study of Homo sapiens with 17 samples.

Results

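Transcript levels of 10 genes that set how a cell answers death ligands were followed in IMR-90 cells, a fibroblast line from human fetal lung, before and after DNA damage by etoposide, a topoisomerase II poison. The genes were taken by symbol from 41040 named genes: the signalling death receptors FAS, TNFRSF1A, TNFRSF10A and TNFRSF10B, the decoy receptors TNFRSF10C and TNFRSF10D, the caspase-like inhibitor CFLAR, and the inhibitors of apoptosis BIRC2, BIRC3 and XIAP. The week 0 group was untreated (5 libraries). The week 1 and week 4 groups (6 libraries each) had received 20 µM etoposide for 48 h, which was then withdrawn, and were harvested 7 and 28 days into the course by their titles. All libraries come from the same cell line, and untreated cells were collected at week 0 alone, so treatment and time in culture cannot be told apart in comparisons with week 0. The study compared non-senescent with senescent cells.

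Death receptors of the tumour necrosis factor receptor family carry an intracellular death domain. When FAS or the TRAIL receptors TNFRSF10A and TNFRSF10B bind their ligands, the adaptor FADD recruits the initiator caspase CASP8, which then activates further caspases. CFLAR, known as c-FLIP, resembles CASP8 and blocks or tunes it at the receptor. TNFRSF10C and TNFRSF10D bind TRAIL without passing on a full death signal. TNFRSF1A, the main tumour necrosis factor receptor, first builds a complex in which the ubiquitin ligases BIRC2 and BIRC3 (cIAP1 and cIAP2) direct signalling to NF-kB and survival. XIAP binds caspases, CASP9 among them, and inhibits them directly. Senescent fibroblasts are known for resistance to many apoptotic stimuli.

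Each library held 77.2 to 102.8 M counts on named genes, and levels are given as CPM, which are counts scaled to library size with TMM factors. The cyclin-dependent kinase inhibitor CDKN1A averaged 284 ± 14.2, 2141 ± 53.7 and 1276 ± 43.3 CPM at weeks 0, 1 and 4 (SD), and the proliferation gene MKI67 410.4 ± 58.4, 42.7 ± 4.62 and 66.5 ± 10.1 CPM. Week 0 replicates 1 and 4 stood apart in the share of counts on ribosomal protein genes, with 5.95% and 5.18% against 3.17% to 3.93% in the other 15 libraries. All 12 fibroblast markers were above 1 CPM, and their sum was 30069 to 36082 CPM at week 0, 43270.5 to 46101 at week 1 and 58063 to 61114 at week 4. All 8 leukocyte markers stayed under 1 CPM, with sums of at most 0.461, 0.789 and 0.899 CPM. The 8 smooth muscle and pericyte markers summed to 880.2 to 1005, 737 to 767 and 624 to 665 CPM. Further, 6 of 8 endothelial and 4 of 8 epithelial markers averaged under 1 CPM in every group. The epithelial regulators ESRP1 and GRHL2 and the endothelial regulator ERG were at 0 at week 0. The summed level of the epithelial markers was 63.1 to 71.1 CPM at week 0, 246 to 286 at week 1 and 207 to 231 at week 4, carried by KRT8, KRT18 and KRT19, while EPCAM averaged at most 0.319 CPM. The endothelial sum was 75.9 to 93.5, 60.1 to 64.4 and 54.7 to 81.8 CPM, mostly TEK. The part of these marker sums in the results below was not tested. In bulk RNA, fewer cells that express a gene and less of its RNA per cell cannot be told apart. The labels do not say that replicates were separate cultures, so p-values measure the spread between libraries, which may be technical.

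At week 1, 8 of the 10 genes were higher than at week 0, BIRC2 was lower, and TNFRSF1A did not pass the test. A gene was called where its adjusted p was under 0.05 in edgeR's quasi-likelihood test with Benjamini-Hochberg adjustment over the 16891 genes tested, and all 10 genes were among those tested. Calls were common in these data, with 66.9% of tested genes called at week 1 against week 0, 32.9% higher and 34% lower. The libraries of both weeks did not overlap for 9 of the 10 genes, against 48.7% of all tested genes. The median log2 fold change of the 10 genes was 0.85, while that of all tested genes was -0.02 and the middle 90% of tested genes ran from -1.48 to 1.78.

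At week 4, 7 genes were higher than at week 0, BIRC2 was lower, and FAS and TNFRSF1A did not pass the test. Of all tested genes 67.6% were called, 33.9% higher and 33.7% lower. The groups did not overlap for 7 of the 10 genes, against 49% of all tested genes. Their median log2 fold change was 0.45, against 0.00 over all tested genes. Both comparisons share the week 0 libraries. On library totals without scaling, the split of all tested genes moved to 4344 higher and 7438 lower at week 1, and 4201 higher and 7649 lower at week 4, in place of 5565 and 5740, and 5722 and 5692.

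Between the treated weeks, 6 of the 10 genes were lower at week 4 than at week 1, and none was higher in edgeR, at an unadjusted p under 0.05 or with DESeq2. Without week 0 replicates 1 and 4, BIRC2 was called higher (0.10, edgeR adjusted p = 0.043). They were the signalling receptors FAS, TNFRSF10A and TNFRSF10B, both decoys and CFLAR, and the libraries of both weeks did not overlap for any of these 6. The other 4 genes, TNFRSF1A, BIRC2, BIRC3 and XIAP, did not pass the test. Over all tested genes 40.5% were called, 21.8% higher and 18.6% lower, and 30.2% did not overlap. The median log2 fold change was -0.21 for the 10 genes and 0.01 for all tested genes.

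**Figure D1:**
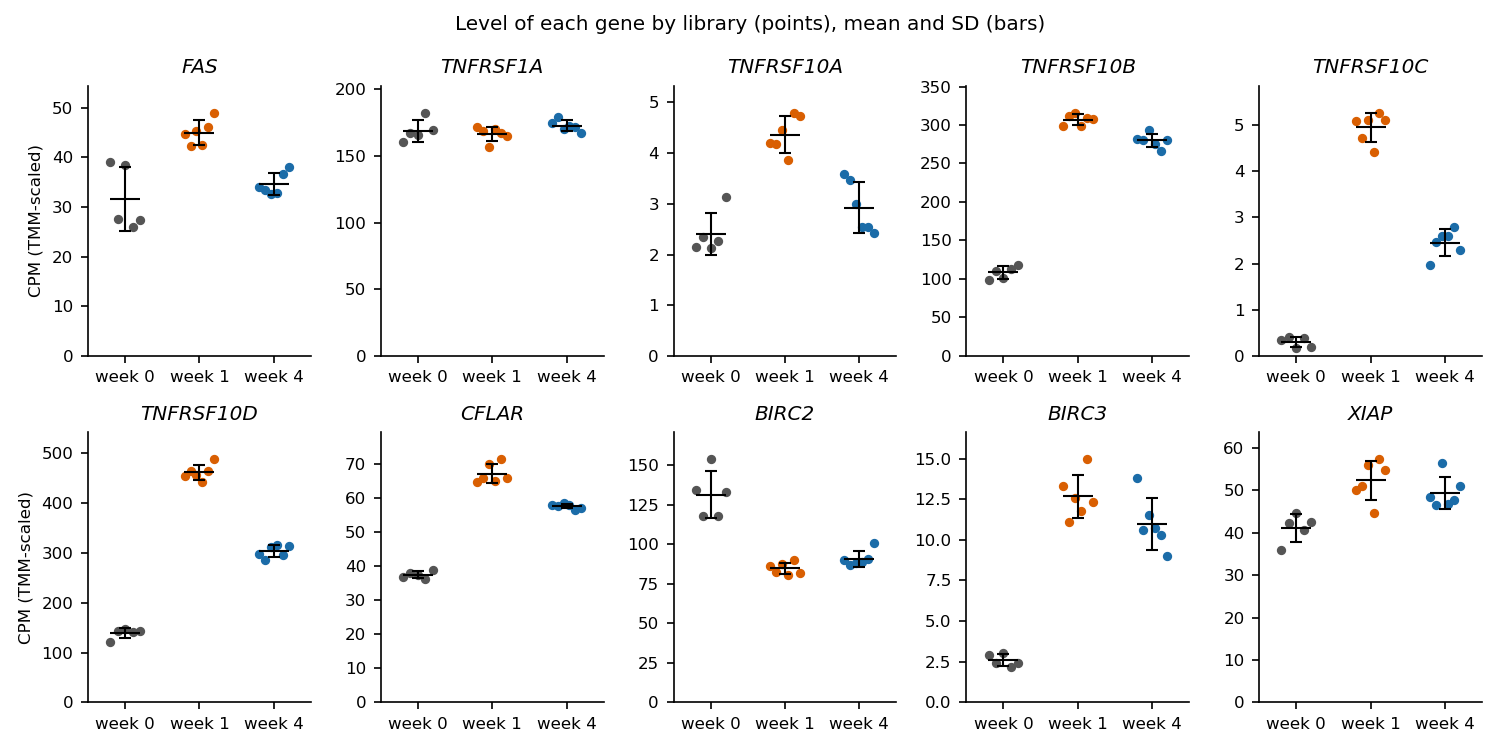
CPM of each of the 10 genes in every library at weeks 0, 1 and 4, with 1 point per library and the group mean and SD. TNFRSF10B, TNFRSF10C, TNFRSF10D, CFLAR and BIRC3 lie above every week 0 library at both later weeks, BIRC2 lies below, and TNFRSF1A overlaps throughout.

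Among the signalling receptors, TNFRSF10B, the TRAIL receptor also called DR5, changed most against week 0. Its week 0 libraries (replicates 1, 3, 4, 5 and 6) had 98.7, 111, 101, 113 and 118 CPM. The lowest, median and highest of the 6 libraries were 298, 309 and 316 CPM at week 1, and 266, 281 and 294 CPM at week 4. The lowest treated library thus stood above the highest untreated one by a wide margin, and no week 4 library reached the lowest of week 1. The gene was 2.83-fold higher at week 1 (log2 fold change 1.50 ± 0.05 SE, edgeR adjusted p = 2.2e-17) and 2.58-fold higher at week 4 (1.37 ± 0.05, adjusted p = 1.2e-16). Week 4 lay 1.10-fold below week 1 (-0.13 ± 0.04, edgeR adjusted p = 0.019), a call that was lost without week 4 replicate 5 (-0.12, edgeR adjusted p = 0.052).

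TNFRSF10A, the other signalling TRAIL receptor (DR4), was present at a far lower level. At week 0 its libraries had 2.14, 2.35, 2.13, 2.26 and 3.13 CPM. The lowest, median and highest were 3.86, 4.32 and 4.79 CPM at week 1, and 2.42, 2.78 and 3.58 CPM at week 4. All week 1 libraries lay above the others, while the week 4 libraries overlapped those of week 0 through replicate 6 of week 0. The gene was 1.81-fold higher at week 1 than at week 0 (0.86 ± 0.12, edgeR adjusted p = 2.1e-06) and 1.49-fold lower at week 4 than at week 1 (-0.58 ± 0.12, adjusted p = 3.5e-04). At week 4 against week 0 it was 1.22-fold higher (0.28 ± 0.12, edgeR adjusted p = 0.049), just under the threshold. With 1 library left out, the call was lost for 13 of the 17 libraries (edgeR adjusted p up to 0.128) and held without week 0 replicate 6 or week 4 replicates 4, 5 or 6 (down to 0.0061).

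FAS, the receptor for FAS ligand and a known p53 target, was raised at week 1 and near its starting level at week 4. Its 5 week 0 libraries had 39.0, 27.6, 38.5, 26.0 and 27.3 CPM, split between replicates 1 and 4 on the high side and the other 3 on the low side. Its week 1 libraries ranged from 42.3 to 48.9 CPM with a median of 45.0, and its week 4 libraries from 32.6 to 38.0 CPM with a median of 33.7. Every week 1 library lay above all others, whereas the week 4 libraries fell between the high and low untreated libraries. FAS was 1.42-fold higher at week 1 (0.51 ± 0.09, edgeR adjusted p = 4.4e-05) and 1.30-fold lower at week 4 than at week 1 (-0.38 ± 0.09, adjusted p = 0.0013). The difference of week 4 from week 0 was 0.13 ± 0.09 (95% interval -0.06 to 0.32, edgeR adjusted p = 0.22), and it was -0.064 on library totals without scaling.

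With TMM scaling, the FAS difference of week 4 from week 0 and its call depended on the untreated libraries. Replicates 1 and 4, which were high in FAS, are also those with the larger ribosomal protein share, and its part in the FAS level was not tested. Without replicate 1 the week 4 difference was 0.21 (edgeR adjusted p = 0.030), without replicate 4 it was 0.21 (adjusted p = 0.044), and without both it was 0.36 (adjusted p = 6.2e-06). At week 1 the difference without both was 0.73 (edgeR adjusted p = 6.0e-11). As these replicates were the highest untreated libraries in FAS, leaving them out had to raise the differences. The values show how far the result rests on them, and are no support for a rise. FAS shares 758 bases with the smooth muscle actin gene ACTA2 on the opposite strand in GENCODE v29, and no source used here gives the strand setting of the counting. ACTA2 averaged 404 ± 21.8 CPM at week 1, against 492 ± 21.1 CPM in untreated cells (-0.28, edgeR adjusted p = 2.3e-04). At week 4 ACTA2 was not called against week 0 (-0.06, edgeR adjusted p = 0.40) and was higher than at week 1 (0.23, adjusted p = 0.0029). The part of this overlap in the FAS counts was not tested.

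TNFRSF1A was the signalling receptor with no called change. Its week 0 libraries had 160.2, 167, 165, 182 and 169 CPM. The 6 libraries of week 1 spanned 157 to 171 CPM around a median of 168, and those of week 4 spanned 167 to 179 CPM around a median of 172. The groups overlapped throughout, with the lowest library of all at week 1 and the highest at week 0. The log2 difference was -0.02 at week 1 (95% interval -0.10 to 0.06, edgeR adjusted p = 0.69) and 0.03 at week 4 (-0.05 to 0.11, adjusted p = 0.51). These intervals are relative to TMM scaling: on library totals, the values were -0.18 (edgeR adjusted p = 3.5e-04) and -0.16 (adjusted p = 9.9e-04), near the shift of the median of all tested genes, which was -0.18 and -0.19 without scaling. Under upper-quartile scaling they were 0.052 (edgeR adjusted p = 0.24) and 0.099 (adjusted p = 0.029), so that week 4 was then called higher.

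The decoy receptors rose together. TNFRSF10D, a TRAIL decoy with a truncated death domain, had 122, 142, 148, 140.5 and 143 CPM in its week 0 libraries. The lowest, median and highest were 442, 460.4 and 487 CPM at week 1, and 285, 304 and 315 CPM at week 4. The 3 weeks formed separate ranges, with week 1 highest and week 0 lowest. The gene was 3.32-fold higher at week 1 (1.73 ± 0.05, edgeR adjusted p = 3.8e-18), 2.18-fold higher at week 4 (1.12 ± 0.05, adjusted p = 5.9e-15) and 1.52-fold lower at week 4 than at week 1 (-0.61 ± 0.05, adjusted p = 8.5e-10).

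TNFRSF10C, a decoy held in the membrane by a lipid anchor and lacking a cytoplasmic death domain, had the largest fold changes of the 10 genes and, at week 0, the lowest level. Its week 0 libraries had 0.336, 0.405, 0.174, 0.393 and 0.194 CPM, which were 32, 38, 15, 41 and 19 counts. At week 1 the lowest, median and highest were 4.42, 5.10 and 5.26 CPM (353 to 480 counts), and at week 4 they were 1.98, 2.54 and 2.78 CPM (150 to 275 counts). The weeks again formed separate ranges in the same order as for TNFRSF10D. It was 16.3-fold higher at week 1 (4.03 ± 0.17, edgeR adjusted p = 2.6e-15), 8.11-fold higher at week 4 (3.02 ± 0.17, adjusted p = 4.8e-13) and 2.01-fold lower at week 4 than at week 1 (-1.01 ± 0.13, adjusted p = 1.9e-06). The 4 TRAIL receptor genes are related in sequence, and GENCODE v29 also holds a coding gene model that shares 12947 bases of the locus with TNFRSF10C on the same strand. No source used here says how reads shared by such genes were counted, and the low counts of TNFRSF10C and TNFRSF10A carry that uncertainty.

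**Figure D2:**
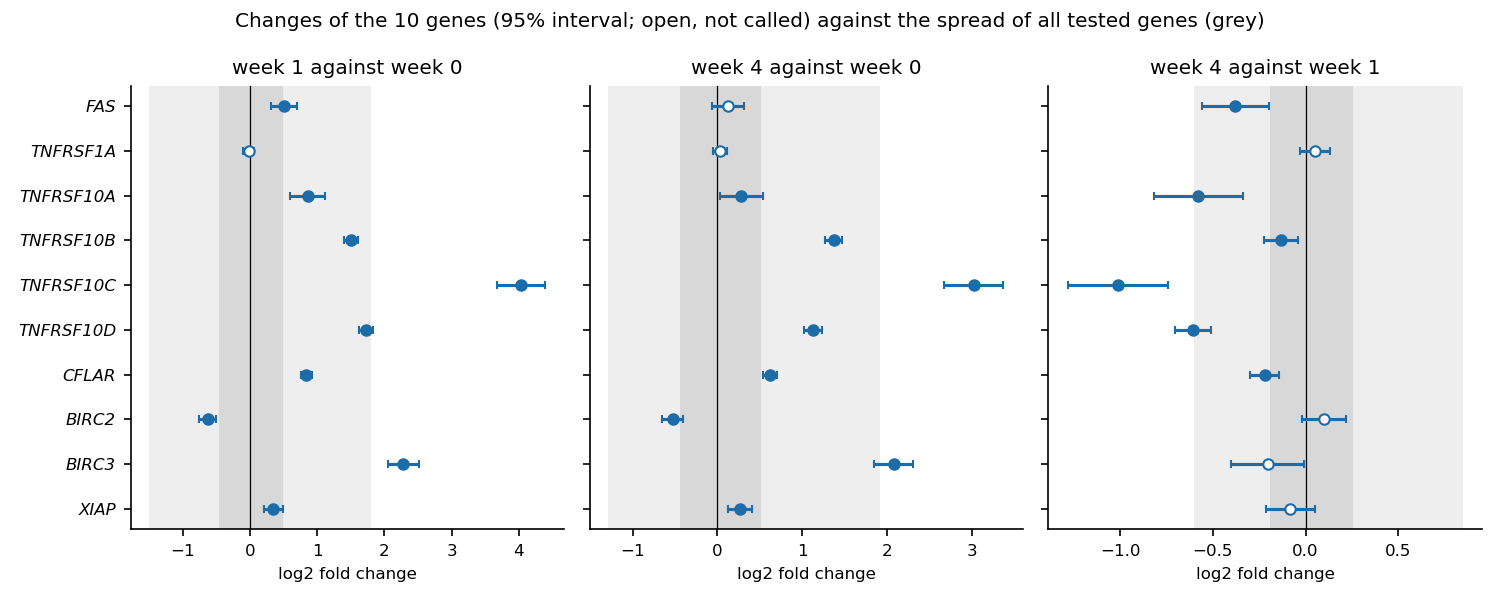
Log2 fold changes of the 10 genes with 95% intervals from edgeR for each later week against week 0 and for the later of the treated weeks against the earlier, with open points not called and grey bands for the middle 50% (dark) and 90% (light) of all tested genes. TNFRSF10C reaches 4.03 at week 1, BIRC2 alone lies below 0 against week 0 beyond its interval, and the week 4 against week 1 values lie at or below 0 for all genes but TNFRSF1A and BIRC2.

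To set levels of different genes side by side, CPM were divided by the gene length deposited with 4 of the libraries, giving CPM per kilobase. On the deposited lengths TNFRSF1A (40.2 ± 1.95) and TNFRSF10D (39.3 ± 2.85) led at week 0 and did not differ beyond their spread, followed by BIRC2 (29.0) and TNFRSF10B (21.6 ± 1.67). At week 1 the order was led by TNFRSF10D with 130.6 ± 4.23 CPM per kilobase, before TNFRSF10B with 61.3 ± 1.43 and TNFRSF1A with 39.6. At week 4 TNFRSF10D had 85.7 ± 3.49, TNFRSF10B 55.9 ± 1.81 and TNFRSF1A 41.0. Among the lower 6 genes at week 0, XIAP had 4.32 CPM per kilobase, CFLAR 1.67, FAS 1.08, TNFRSF10A 0.821, BIRC3 0.348 and TNFRSF10C 0.194, and the libraries of FAS and TNFRSF10A overlapped. At week 1 XIAP (5.49) was followed by TNFRSF10C (3.21 ± 0.204) and CFLAR (2.99), whose libraries overlapped, and then by BIRC3 (1.69), FAS (1.53) and TNFRSF10A (1.49), which overlapped too. At week 4 the order was XIAP (5.19), CFLAR (2.57), TNFRSF10C (1.59 ± 0.184), BIRC3 (1.47), FAS (1.18) and TNFRSF10A, with overlaps between neighbours from TNFRSF10C down. On the deposited lengths TNFRSF10C thus stood last of the 10 genes in untreated cells and in the middle of the order later. The order depends on the lengths used. The deposited lengths of FAS (29313 bases), CFLAR (22478) and TNFRSF1A (4205) are longer than the longest coding transcripts in GENCODE v29, with 2563, 14672 and 2223 bases. With coding transcript lengths TNFRSF1A had 76.0, 74.9 and 77.6 CPM per kilobase at weeks 0, 1 and 4, TNFRSF10D 39.3, 130.5 and 85.6, and TNFRSF10B 26.2, 74.1 and 67.5. TNFRSF1A then stood above TNFRSF10D at week 0, close to TNFRSF10B at week 1 and above TNFRSF10B at week 4. On the same scale FAS had 12.4, 17.5 and 13.5 CPM per kilobase at weeks 0, 1 and 4. TNFRSF10C had 0.175, 2.88 and 1.43, BIRC3 0.502, 2.44 and 2.12, and TNFRSF10A 0.885, 1.61 and 1.08. By these means TNFRSF10C was last at week 0, above BIRC3 and TNFRSF10A alone at week 1, and above TNFRSF10A alone at week 4.

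Among the 4 TRAIL receptors, TNFRSF10D and TNFRSF10B made up nearly all of the sum per kilobase. TNFRSF10D took 63.4%, 66.4% and 59.4% at weeks 0, 1 and 4, and TNFRSF10B took 34.9%, 31.2% and 38.8%. TNFRSF10C and TNFRSF10A together stayed under 3%, with TNFRSF10C at 0.316%, 1.63% and 1.10%. The decoys over the signalling TRAIL receptors, taken within each library, came to 1.64 to 2.01 at week 0, 2.05 to 2.23 at week 1 and 1.44 to 1.62 at week 4. The means were 1.76 ± 0.143, 2.13 ± 0.0621 and 1.54 ± 0.0715, so that the ratio stood above the untreated libraries at week 1 and below them at week 4, with no overlap. The ratio is given as a description, with no test, and it concerns RNA, not receptors on the cell surface.

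**Figure D3:**
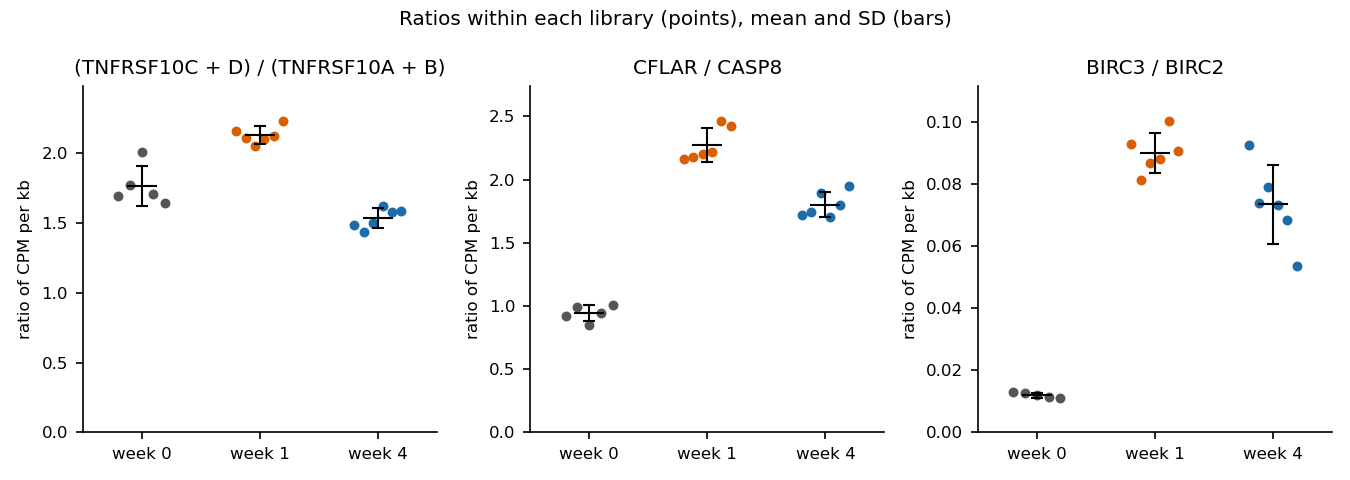
Within-library ratios per kilobase at weeks 0, 1 and 4 for decoy over signalling TRAIL receptors, CFLAR over CASP8 and BIRC3 over BIRC2, with 1 point per library. The decoy ratio is highest at week 1 and lowest at week 4, while the other ratios stay above every week 0 library at both later weeks.

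CFLAR, the caspase-like inhibitor at the receptor, varied little within groups. Its week 0 libraries had 37.0, 38.1, 37.3, 36.3 and 39.0 CPM. Week 1 libraries had between 64.7 and 71.4 CPM (median 66.0), and week 4 libraries between 56.6 and 58.4 CPM (median 57.9). No library of any week reached the range of another. CFLAR was 1.79-fold higher at week 1 (0.84 ± 0.04, edgeR adjusted p = 2.2e-14), 1.54-fold higher at week 4 (0.62 ± 0.04, adjusted p = 5.5e-12) and lower at week 4 than at week 1 (-0.22 ± 0.04, adjusted p = 5.9e-05). CFLAR isoforms with different effects on CASP8 cannot be read from gene counts. An antisense gene, CFLAR-AS1, shares 17546 bases with it but averaged at most 0.145 CPM.

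Its target CASP8 moved the other way. CASP8, the initiator caspase of the FAS and TRAIL receptors, averaged 9.53 ± 0.486 CPM at week 1, against 12.8 ± 0.784 CPM in untreated cells (-0.43, edgeR adjusted p = 2.1e-06), and 10.3 ± 0.593 CPM at week 4 (-0.31, adjusted p = 1.1e-04). The ratio of CFLAR to CASP8 per kilobase within a library was 0.847 to 1.01 at week 0, 2.16 to 2.47 at week 1 and 1.71 to 1.95 at week 4. Treated libraries lay above all untreated ones, and week 4 lay below week 1. The height of this ratio rests on the deposited lengths, while its change between weeks does not.

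The cIAP genes went in opposite directions. BIRC3 (cIAP2), a ubiquitin ligase of the TNFRSF1A complex and a known NF-kB target, had 2.90, 2.45, 3.04, 2.21 and 2.44 CPM at week 0. The lowest, median and highest were 11.1, 12.5 and 14.9 CPM at week 1, and 8.99, 10.7 and 13.8 CPM at week 4. All treated libraries lay above all untreated ones, and the treated weeks overlapped. BIRC3 was 4.86-fold higher at week 1 (2.28 ± 0.11, edgeR adjusted p = 2.9e-14) and 4.22-fold higher at week 4 (2.08 ± 0.11, adjusted p = 1.8e-13). Week 4 differed from week 1 by -0.21 ± 0.10 (95% interval -0.40 to -0.01, edgeR adjusted p = 0.095). This became a call without week 4 replicate 1 (-0.28, edgeR adjusted p = 0.018), without week 0 replicates 1 and 4 (adjusted p = 0.0496), with the treated groups alone (adjusted p = 0.034), on library totals (adjusted p = 0.048) and with limma-voom (adjusted p = 0.046).

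BIRC2 (cIAP1), the partner ligase, was the gene of the list with lower levels after treatment. Its week 0 libraries had 134, 118, 154, 118 and 133 CPM. Treated libraries had 80.8 to 89.7 CPM at week 1 (median 84.3) and 86.8 to 101 CPM at week 4 (median 89.2). Every treated library lay below every untreated one, and the treated weeks overlapped. BIRC2 was 1.55-fold lower at week 1 (-0.63 ± 0.06, edgeR adjusted p = 4.1e-09) and 1.44-fold lower at week 4 (-0.53 ± 0.06, adjusted p = 7.0e-08), and week 4 differed from week 1 by 0.10 (95% interval -0.02 to 0.22, adjusted p = 0.18). BIRC2 stayed the more abundant of the pair per kilobase at all weeks, with 29.0, 18.8 and 20.1 CPM per kilobase against 0.348, 1.69 and 1.47 for BIRC3. Their ratio, BIRC3 over BIRC2, averaged 0.0120 ± 0.000833 at week 0, 0.0901 ± 0.00649 at week 1 and 0.0735 ± 0.0127 at week 4.

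BIRC3 and BIRC2 are neighbours on chromosome 11, read in the same direction, and their promoters are shown because the genes moved apart. They are RefSeq sequences of build GRCh38.p14, each from 250 bases before to 50 bases after the gene's start on the plus strand, BIRC2 at chr11:102347124-102347423 and BIRC3 at chr11:102317234-102317533. Capitals mark matches to the kappa-B consensus, the motif bound by NF-kB, searched on both strands.
BIRC2: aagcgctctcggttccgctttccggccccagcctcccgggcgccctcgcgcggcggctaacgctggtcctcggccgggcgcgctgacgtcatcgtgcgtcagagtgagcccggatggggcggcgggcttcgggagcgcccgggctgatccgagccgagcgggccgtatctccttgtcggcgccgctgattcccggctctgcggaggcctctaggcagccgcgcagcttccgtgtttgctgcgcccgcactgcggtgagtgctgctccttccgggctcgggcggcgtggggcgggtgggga
BIRC3: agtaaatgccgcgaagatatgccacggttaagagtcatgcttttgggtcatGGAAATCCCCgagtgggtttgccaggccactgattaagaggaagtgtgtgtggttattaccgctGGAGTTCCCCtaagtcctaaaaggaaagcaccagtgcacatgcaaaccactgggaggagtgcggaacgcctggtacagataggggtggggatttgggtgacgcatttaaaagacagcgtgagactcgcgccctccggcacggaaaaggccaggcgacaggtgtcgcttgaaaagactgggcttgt
The BIRC3 window held 2 matches, 199 and 135 bases before the start and both on the minus strand, while these letters were not found in the BIRC2 window. Of 35116 promoters of that length, 5.909% held a match. RefSeq promoters were at hand for 6 of the 10 genes, which were FAS, TNFRSF1A, CFLAR, BIRC2, BIRC3 and XIAP, and for none of the TRAIL receptors. BIRC3 was the only 1 of those 6 with a kappa-B match. The p53 half-site consensus, in 6.632% of all promoters, matched none of the 6. With so low a share, no match in 6 promoters tells little, and bases outside these windows were not searched. A match is a description of letters, not of binding.

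XIAP, the direct caspase inhibitor, changed least against week 0 among the genes called there. Its week 0 libraries had 35.9, 42.2, 44.6, 40.6 and 42.5 CPM. After treatment, libraries had 44.7 to 57.2 CPM with a median of 52.9 at week 1, and 46.5 to 56.3 CPM with a median of 48.0 at week 4. The untreated libraries lay below both treated groups, by a narrow margin, and those overlapped each other. XIAP was 1.27-fold higher at week 1 (0.35 ± 0.07, edgeR adjusted p = 1.1e-04) and 1.20-fold higher at week 4 (0.26 ± 0.07, adjusted p = 0.0016). On library totals without scaling the week 4 call was lost (0.07, edgeR adjusted p = 0.34).

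Neighbouring genes did not share these changes throughout. RefSeq orders the TRAIL receptors as TNFRSF10B, TNFRSF10C, TNFRSF10D and TNFRSF10A, between RHOBTB2 and CHMP7, and all 4 receptors were higher at week 1. The flanks, chosen by position after values were seen, moved less: RHOBTB2 was lower (-0.28, edgeR adjusted p = 2.2e-04) and CHMP7 higher (0.22, adjusted p = 4.9e-04). YAP1 and TMEM123, on the outer sides of BIRC3 and BIRC2, were both lower at week 1 (-0.21, edgeR adjusted p = 0.0042, and -0.37, adjusted p = 2.7e-06). CFLAR stands beside CASP10 and CASP8, of which CASP8 was lower and CASP10 was not called (0.320 CPM at week 1 and 0.244 CPM at week 0). NDUFB3 on its other side was lower at week 1 (-0.37, edgeR adjusted p = 0.025) and week 4 (-0.73, adjusted p = 8.7e-05). At week 4 RHOBTB2 was still lower (-0.23, edgeR adjusted p = 0.0013), while CHMP7 (-0.03), YAP1 (0.08) and TMEM123 (-0.09) did not pass the test, at adjusted p of 0.64, 0.26 and 0.15.

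**Figure D4:**
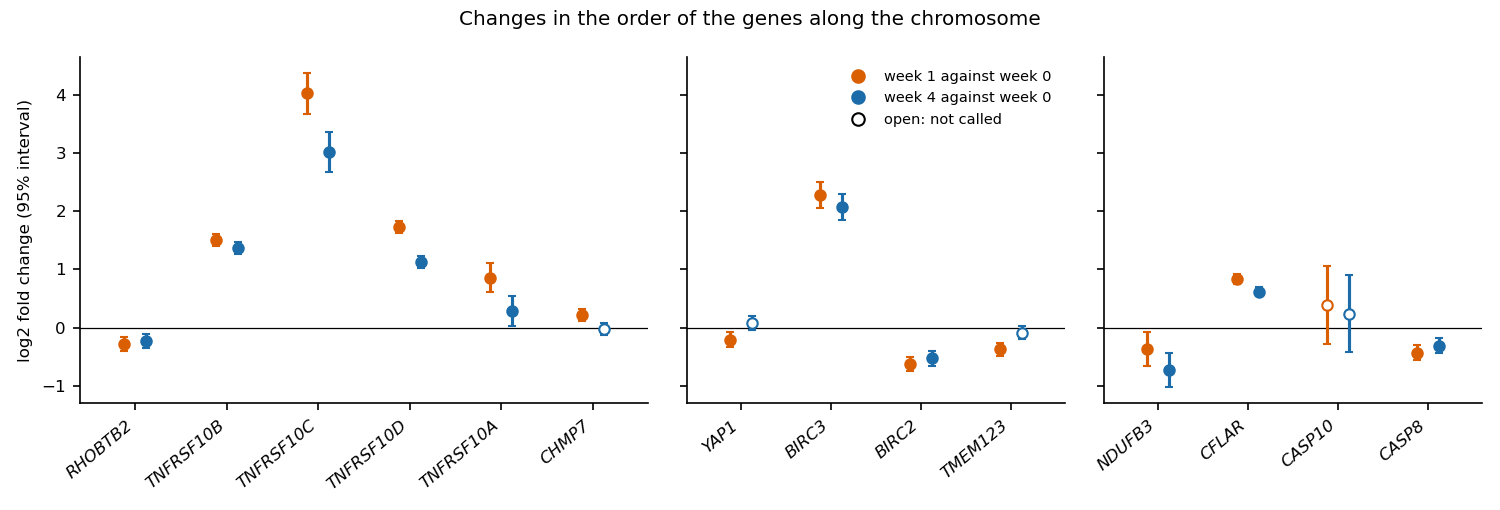
Log2 fold changes at week 1 and week 4 against week 0 of the genes around the TRAIL receptors, the cIAP pair and CFLAR, in RefSeq gene order, with 95% intervals and open points not called. The 4 TRAIL receptors lie above 0 at both weeks, BIRC3 lies above and BIRC2 below 0, and CFLAR lies above while CASP8 lies below.

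Across the 17 libraries, the likeness between genes was measured as Pearson's r of log2(CPM + 0.5), a description in which the points share the steps between the weeks. TNFRSF10C and TNFRSF10D followed each other (0.986), and CFLAR followed both (0.984 and 0.986). TNFRSF10B and BIRC2 ran against each other (-0.948). Of all tested genes the most like CFLAR was CDKN1A (0.993), then SLC9A7 (0.992) and NAALADL2 (0.992). Those most like TNFRSF10B were TGM2, CDCP1 and ADAMTS12 (0.998 each), and TNFRSF10D was nearest to BMPER (0.998), MCFD2 (0.997) and RDH10 (0.995). TNFRSF10C was nearest to ABTB2 (0.993), then MARCHF2 and MMP24OS. BIRC3 was nearest to HDAC9 (0.993), then CMBL and CERS4. BIRC2 was nearest to HAUS2 (0.984), then SF3B1 (0.983) and MRPL3 (0.981). FAS was nearest to SSR3 (0.968), FBXO22 (0.963) and TMEM167A (0.962), TNFRSF10A to RUBCN (0.965), SELPLG (0.952) and PSMG3-AS1 (0.945), and XIAP to CANX (0.938), EFR3A (0.921) and RECK (0.919). TNFRSF1A, which did not move with the weeks, had the weakest nearest genes, ZNF70, RNF146 and WDR13 (0.751 to 0.774).

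Around these 10 genes, 61 further genes of the pathway were listed, of which 54 were tested. At week 1 against week 0, 24 were higher and 17 lower, with a median log2 fold change of 0.07. At week 4 against week 0, 26 were higher and 17 lower (median 0.14), and at week 4 against week 1, 14 were higher and 14 lower (median 0.05). These shares are to be read against the 32.9% higher and 34% lower, 33.9% and 33.7%, and 21.8% and 18.6% of all tested genes.

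Of 5 death ligands, 3 were tested, and all 3 were called higher at both weeks against week 0, FASLG on few counts. Of all tested genes 32.9% and 33.9% were called higher. TNFSF10 and FASLG were scarce. TNFSF10, which encodes TRAIL, averaged 0.107 ± 0.017, 0.775 ± 0.141 and 0.831 ± 0.160 CPM at weeks 0, 1 and 4, a rise against week 0 at week 1 (2.84 ± 0.23, edgeR adjusted p = 1.8e-10) and at week 4 (2.94, adjusted p = 1.1e-10). TNFSF15, the ligand of the death receptor TNFRSF25, averaged 0.193, 3.03 and 5.03 CPM, higher at both weeks (3.95, edgeR adjusted p = 1.1e-12, and 4.67, adjusted p = 6.7e-14) and higher at week 4 than at week 1 (0.73, adjusted p = 0.0012). FASLG had 2 counts in all at week 0, 34 at week 1 and 73 at week 4, too few for a fold change. TNF and LTA had no count in any library. Of 78 protein-coding genes in the stretch around TNF, with TNF and LTA included, 58 had no count and 73 had under 10 counts in every library. Among those with no count were TUBB, CSNK2B and CLIC1, which cells use widely. The level of TNF and LTA therefore cannot be read from these files.

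Of 7 adaptors and kinases tested, with RIPK3 untested, 1 was higher and 1 lower at week 1, and 3 were higher and 3 lower at week 4 (medians -0.01 and -0.05). TRADD, the adaptor of TNFRSF1A, averaged 13.1 and 12.6 CPM at weeks 1 and 4, against 7.56 CPM at week 0 (0.80, edgeR adjusted p = 6.0e-09, and 0.74, adjusted p = 2.2e-08). TRAF2, which brings the cIAPs to that complex, averaged 13.3 and 13.6 CPM, against 20.5 CPM at week 0 (-0.63, edgeR adjusted p = 1.4e-08, and -0.59, adjusted p = 3.6e-08).

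Caspases were mostly lower, with 2 of 7 higher and 4 lower at week 1 (median -0.43) and 1 higher and 4 lower at week 4 (median -0.21). CASP9, the initiator of the mitochondrial route, was higher at week 1 and week 4 (0.51, edgeR adjusted p = 3.4e-06, and 0.24, adjusted p = 0.0083). The largest falls were those of CASP6 (-1.51, edgeR adjusted p = 1.2e-11) and CASP2 (-1.03, adjusted p = 1.3e-12) at week 1.

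The mitochondrial arm was split, with 2 of 5 genes higher and 2 lower at each week against week 0. BID, which CASP8 cuts to pass the signal to mitochondria, averaged 81.8 and 70.3 CPM at weeks 1 and 4, against 46.5 CPM at week 0 (0.81, edgeR adjusted p = 6.3e-12, and 0.59, adjusted p = 1.5e-09). HTRA2, whose protein binds XIAP when released, was lower (-0.35, edgeR adjusted p = 3.4e-04, and -0.61, adjusted p = 3.3e-07).

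Among 5 tested relatives and antagonists of the inhibitors of apoptosis, 2 were higher and 2 lower at week 1, and 2 were higher and 1 lower at week 4. BIRC5, which works mainly in mitosis, averaged 13.9 ± 1.01 CPM (week 1) and 15.5 ± 1.86 CPM (week 4), against 198 ± 31.6 CPM in untreated cells, a 14.3-fold fall at week 1 (-3.83, edgeR adjusted p = 4.4e-19). MKI67 fell in the same libraries. XAF1, a XIAP antagonist, was higher at week 1 (0.61, edgeR adjusted p = 0.019), at week 4 (1.81, adjusted p = 1.8e-07) and at week 4 against week 1 (1.20, adjusted p = 4.5e-05). BIRC6 was higher in the same 3 comparisons (0.57, 0.90 and 0.33).

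Of 13 genes that edit ubiquitin chains or signal at the TNFRSF1A complex, 7 were higher and 4 lower at week 1 (median 0.16), and 6 were higher and 4 lower at week 4 (median 0.03). The rises with the smallest adjusted p were those of TNFAIP3 and CYLD, deubiquitinases that restrain NF-kB. OTULIN, another deubiquitinase of the list, was lower at both weeks (-0.27, edgeR adjusted p = 0.0012, and -0.27, adjusted p = 0.0014). TNFAIP3 (A20), itself an NF-kB target, averaged 33.4 and 39.2 CPM at weeks 1 and 4, against 8.21 CPM at week 0 (2.03, edgeR adjusted p = 5.1e-16, and 2.25, adjusted p = 1.0e-16). CYLD averaged 64.1 and 51.9 CPM, against 26.8 CPM at week 0 (1.26, edgeR adjusted p = 7.9e-14, and 0.95, adjusted p = 1.2e-11). The kinase subunits CHUK (-0.46 and -0.59) and IKBKG (-0.30 and -0.51) were lower at both weeks. Their partner IKBKB was higher at week 1 (0.31, edgeR adjusted p = 2.9e-06) and not called at week 4 (0.03, adjusted p = 0.53).

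Of 5 other death-domain and decoy receptors tested, 2 were higher and 2 lower at week 1, and 3 were higher and 1 lower at week 4. The soluble decoy TNFRSF11B (osteoprotegerin), which can bind TRAIL, averaged 126 ± 8.23 CPM (week 1) and 90.1 ± 6.21 CPM (week 4), against 309.9 ± 66.2 CPM in untreated cells. It was lower at both weeks (-1.30, edgeR adjusted p = 4.6e-11, and -1.78, adjusted p = 2.5e-13), opposite to the membrane decoys TNFRSF10C and TNFRSF10D. TNFRSF25, the receptor of TNFSF15, was higher at both weeks (0.54, edgeR adjusted p = 3.1e-04, and 0.77, adjusted p = 3.8e-06).

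Of 9 genes that shed receptors or modulate FAS, 5 were higher and 2 lower at week 1 (median 0.24), and 6 were higher and 2 lower at week 4 (median 0.36). ADAM17, the protease that sheds TNFRSF1A, was higher at both weeks (0.33, edgeR adjusted p = 1.3e-06, and 0.41, adjusted p = 6.8e-08). The FAS-binding phosphatase PTPN13 was higher at both weeks too (0.65, edgeR adjusted p = 1.3e-08, and 1.01, adjusted p = 8.1e-12). FAIM, an inhibitor of FAS-driven apoptosis, was lower (-0.54, edgeR adjusted p = 3.5e-06, and -0.76, adjusted p = 2.8e-08), as was the FAS-associated factor FAF1 (-0.52 and -0.38). FAIM2, another inhibitor of FAS-driven apoptosis, was higher (0.40, edgeR adjusted p = 9.5e-04, and 1.13, adjusted p = 5.9e-10), and so was its relative TMBIM1 (0.83 and 0.49).

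**Figure D5:**
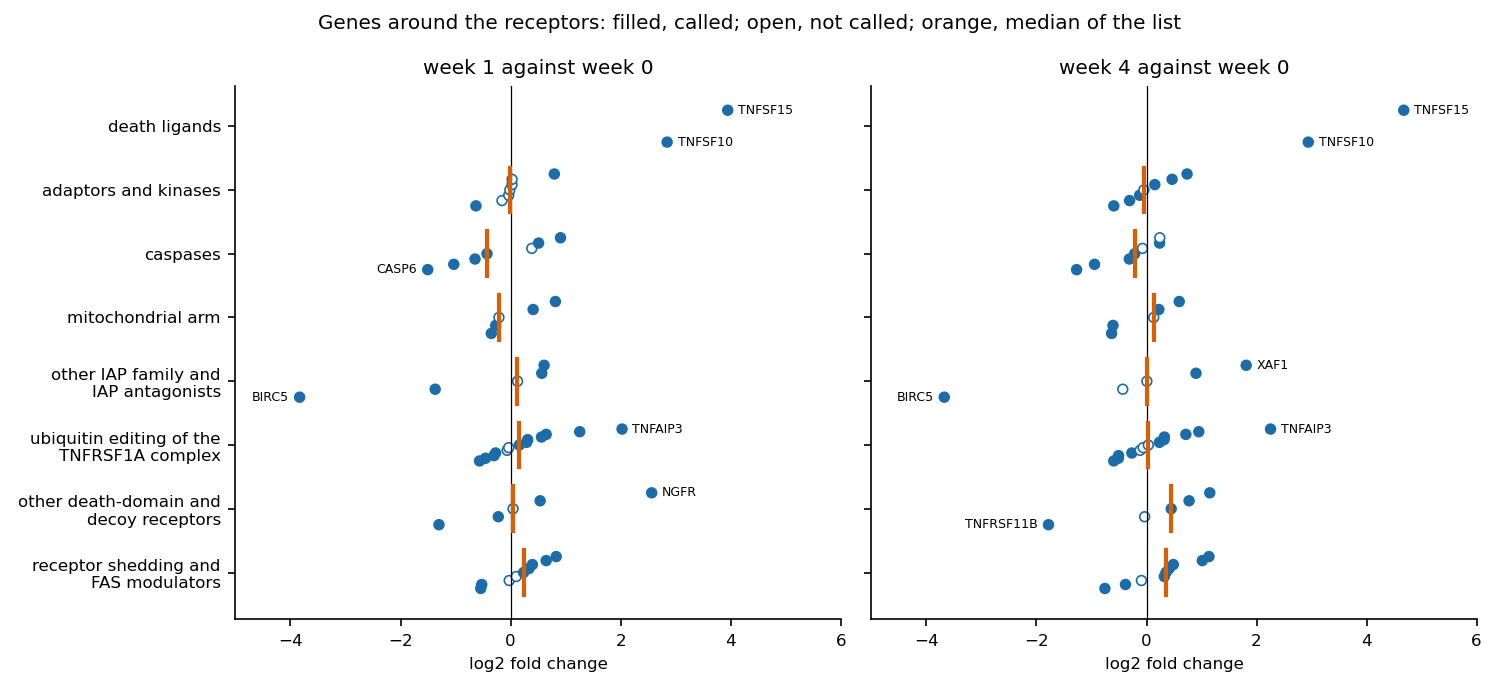
Log2 fold changes of the tested pathway genes by list at week 1 and week 4 against week 0, with 1 point per gene open where not called, and the median as a line for lists of more than 3 genes drawn; FASLG is not drawn. Points lie on both sides of 0 in all lists but the death ligands, and BIRC5, TNFSF15 and TNFSF10 lie farthest from 0.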

How the data were processed

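Bulk RNA-seq of 17 IMR-90 libraries was grouped by the labels' titles. The authors deposited raw counts per gene symbol, and for 4 libraries (week 0 replicates 5 and 6, week 1 replicates 1 and 2) also a gene length. The submitters' processing notes name HISAT2 2.0.5.2, featureCounts 1.4.6 and the mouse build mm10. The symbols are human, so no coordinates of the counted genes are given. No source used here gives annotation, strand or multiple mapping. An entry with no name (0.221% to 0.289% of counts) was left out.

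Tests ran on counts in edgeR 4.0.16 (R 4.3.3) with filterByExpr, TMM factors (0.938 to 1.11, highest at week 0), a mean per group over all libraries, and Benjamini-Hochberg adjustment over 16891 genes. The biological coefficient of variation was 11.7%. Alternatives used DESeq2 1.42.0, limma-voom 3.58.1, other scalings and filters, a minimum fold change, the replicate number as a block and libraries left out. The method was tested on simulated data drawn with the spread that edgeR estimated. There DESeq2 called more unchanged genes than edgeR or limma-voom, and no bound on such calls was set for it. No pair of libraries within a group agreed within sampling noise (chi-square per gene at least 7.38 over 40 pairs). Members and lists were chosen with earlier results of these data known. Named pathway genes were, per list and comparison, up to 2 higher and 2 lower with the smallest adjusted p, plus the main ligands and initiator caspases, of which some are printed. Some pathway genes are not reported here but were kept in all tests and counts.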

Additional observations from a re-analysis of the deposited data

Results flagged for a closer look

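In 39 groups of values examined, 3 libraries stood apart from the rest of their group. Chance gives about 1 in 20 groups, so 3 of 39 is little more than chance alone would give. TNFRSF10A had 3.13 CPM in week 0 replicate 6, against 2.13 to 2.35 CPM in the other week 0 libraries. TNFRSF10D had 122 CPM in week 0 replicate 1, against 140.5 to 148 CPM in the others. BIRC2 had 101 CPM in week 4 replicate 6, against 86.8 to 91.0 CPM in the others. The changes against week 0 differed between week 4 and week 1 for 6 genes, by the test of week 4 against week 1 in edgeR. The difference was -0.38 for FAS (adjusted p = 0.0013), -0.58 for TNFRSF10A (adjusted p = 3.5e-04), -0.13 for TNFRSF10B (adjusted p = 0.019), -1.01 for TNFRSF10C (adjusted p = 1.9e-06), -0.61 for TNFRSF10D (adjusted p = 8.5e-10) and -0.22 for CFLAR (adjusted p = 5.9e-05), all on the log2 scale.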

How the results depend on the processing

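All 30 changes of the 10 genes kept direction and call with RLE scaling and with DESeq2. Requiring more than a 2-fold change (glmTreat at log2 fold change 1) left 4, 4 and 0 genes of the list called (week 1 and then week 4 against week 0, then week 4 against week 1), and 2193, 1991 and 150 of all genes. The 4 were TNFRSF10B, TNFRSF10C, TNFRSF10D and BIRC3 in both comparisons with week 0. Directions turned where the change was near 0: TNFRSF1A at week 1 under upper-quartile scaling (0.052) and without week 0 replicate 5 (0.0079, where leaving out single libraries gave -0.039 to 0.0079), TNFRSF1A at week 4 on library totals (-0.16) and without week 0 replicates 1 and 4 (-0.0068), and FAS at week 4 on library totals (-0.064) and without the 4 libraries with gene lengths (-0.025). The 4 libraries with gene lengths include week 0 replicates 5 and 6, the lowest in FAS at week 0 (26.0 and 27.3 CPM). Leaving them out had to lower the FAS difference. The cause of the other turns was not tested. The call of TNFRSF10A at week 4 against week 0 was also lost with limma-voom (adjusted p = 0.071), without a filter (adjusted p = 0.093) and on library totals (adjusted p = 0.55). Without week 0 replicates 1 and 4 the genes called were 9, 8 and 8, the last as 1 higher (BIRC2) and 7 lower. At week 4 against week 0 the genes called then changed. TNFRSF10A was lost (0.17, edgeR adjusted p = 0.28) and FAS was gained (0.36, adjusted p = 6.2e-06). Ratios without gene length were 1.26, 1.50 and 1.08 for the TRAIL receptors at weeks 0, 1 and 4, 2.93, 7.07 and 5.59 for CFLAR over CASP8, and 0.0199, 0.149 and 0.122 for BIRC3 over BIRC2, with the same order of weeks. Leaving out each library in turn gave 9 to 9, 7 to 8 and 5 to 7 genes of the list called, and 10981 to 11372, 11015 to 11356 and 6218 to 7308 of all genes. Replicate numbers gave little sign of pairing. After each gene's group mean was taken away, same-numbered libraries of different weeks correlated at -0.082 to 0.144. The closest partner carried the same number in 1 of 5 pairs for week 1 against week 0. It did so in 2 of 5 for week 4 against week 0, and 0 of 6 for week 4 against week 1. With the number as a block, 9, 7 and 6 genes of the list and 11096, 11180 and 6669 of all genes were called, and TNFRSF10A at week 4 against week 0 was lost (0.26, adjusted p = 0.087). TNFRSF10C rested on 15 to 41 counts per library at week 0, which limits its fold changes.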
